A study of Mus musculus with 24 samples.

Results

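A set of 8 genes that carry sterols across the gut wall or serve that traffic were followed through 6 treatments of mouse ileum. They are 8 of the 57126 genes in the deposited count table. They were picked by symbol for their known roles, and with earlier results of these data known. The roles are uptake (Npc1l1 and Scarb1), esterification (Soat2), efflux (Abcg5, Abcg8 and Abca1) and a link to the liver X receptors, LXR (Lpcat3 and Nr1h3). All 8 passed the filter on low counts that left 13125 genes for testing. The counts behind them differ. Over the 21 libraries used, Lpcat3 had 144 to 591 counts per library and Npc1l1 77 to 384. Abca1 had 55 to 213, Abcg5 46 to 181, Soat2 33 to 156 and Abcg8 31 to 155. Scarb1 had 6 to 44 and Nr1h3 5 to 40, so their values carry the widest errors below.

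In the absorptive cells of the small intestine, NPC1L1 takes cholesterol and plant sterols in from the lumen. SOAT2 esterifies the cholesterol that is kept for lipoproteins, ABCG5 and ABCG8 form a pair that pumps sterols back to the lumen, and ABCA1 loads cholesterol onto apolipoprotein A-I at the basal side. LXR, nuclear receptors that bind oxysterols, raise the transcription of Abca1, Abcg5, Abcg8 and Lpcat3, and bile acids make dietary sterols soluble enough to be taken up.

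The tissue was the far end of the small intestine, the ileum, cut into fragments from male wild-type C57BL/6J mice that had been starved for 4 h. The fragments were kept for 8 h in Advanced DMEM/F12 with an additive, and 100 ng of RNA per library was read by QuantSeq, which sequences mRNA next to its poly(A) end. The groups were the solvent DMSO (3 libraries used), tCDCA (tauro-conjugated chenodeoxycholic acid, 4), and extracts, labelled CME, whose donors were wild-type (WT) or Asbt-/- mice: WT CME(-) (4), WT CME(+) (3), Asbt-/- CME(-) (3) and Asbt-/- CME(+) (4). The Asbt genotype (Slc10a2, the ileal bile acid uptake carrier) is that of the donor of the extract, and the treated tissue was wild-type throughout. The labels do not expand the letters CME. In 3 libraries a label reads CAM instead, and the title was followed. CME(+) was read as the form depleted of bile acids, because a concentration of 200 µM is given for tCDCA and CME(-) in replicates 2 to 4 and none for CME(+). Fgf15, which bile acids induce, was higher than in DMSO in the CME(+) groups too, with the values given below. The labels give a different donor mouse for each extract of replicates 2 to 4 within a group. They do not say that the treated fragments of a group came from separate mice, so the p-values measure the spread between these libraries, which may be technical.

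Of 24 libraries, 3 were marked as removed by the submitters and stayed out: DMSO replicate 1, which had 0.5% DMSO, Asbt-/- CME(-) replicate 3 and WT CME(+) replicate 2, both for poor mapping. The DMSO libraries used had 0.6% DMSO, so analyses with DMSO replicate 1 added mix these solvent levels. Totals were 2755149 to 5602265 counts in the libraries used. The table's column names start with one number for replicate 1 of each group and with another for replicates 2 to 4. These are called the first and second run here, although the labels name no run or date. DMSO had no first-run library among those used. The second-run libraries held 17.6% to 34.6% of counts from mitochondrial ribosomal RNA, with 1 exception, tCDCA replicate 3 at 5.29%, and the first-run libraries 6.78% to 8.29%. The first-run libraries used also stood apart in markers of myeloid cells, whose summed level was 310.0 to 397 CPM (counts scaled to library size by the TMM method) against 103 to 173 CPM in the second run. They stood apart likewise in markers of T and NK cells (49.9 to 61.9 against 4.81 to 16.1 CPM), B and plasma cells (338 to 472 against 93.1 to 158), adipocytes and mesothelium (145 to 341 against 18.8 to 73.3) and fibroblasts (619 to 867 against 226 to 474). The tissue was checked against its label: the ileal markers Fabp6 and Slc10a2 were at 3755 ± 684 and 534 ± 126 CPM (SD, n = 3) in DMSO. Over the libraries used, the 5 ileal markers summed to 3506 to 9697 CPM and the 5 markers of proximal intestine to 1.57 to 64.0 CPM, of which 3 passed the filter on low counts. Fgf15, the ileal hormone gene that bile acids induce, was at 7.03 ± 1.01 CPM in DMSO (SD, n = 3) and 240.0 ± 45.2 CPM with tCDCA (SD, n = 4). It was at 180 ± 93.2 CPM with WT CME(-) (SD, n = 4), 288 ± 62.6 with Asbt-/- CME(-) (SD, n = 3), 64.7 ± 21.1 with WT CME(+) (SD, n = 3) and 66.2 ± 15.6 with Asbt-/- CME(+) (SD, n = 4). It rose against DMSO in all of these, also with WT CME(+) (8.29-fold, adjusted p = 0.00138, edgeR) and Asbt-/- CME(+) (8.83-fold, adjusted p = 0.000136, edgeR). Asbt-/- CME(-) was 4.19-fold above Asbt-/- CME(+) (adjusted p = 0.00567, edgeR).

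Promoter sequence is shown for the pair Abcg5 and Abcg8, which share the stretch between their starts, and for Npc1l1, since Npc1l1 and Abcg5 are the 2 transporter genes called below and Abcg8 shares its interval with Abcg5. The sequences are RefSeq's for mouse build GRCm38.p6, an older build than the GRCm39 used for the counts, and were found by gene symbol. The table holds 6 of the 8 genes, all but Soat2 and Scarb1. It holds 2 windows for Abcg8, and the interval below ends at the start of 1 of them. Abcg5 and Abcg8 are transcribed away from each other on chromosome 17, and the 109 bases between their RefSeq starts (chr17:84683012-84683120, plus strand) hold GATAA, the core read by GATA factors, 2 times on the minus strand. Capitals mark these matches. Of 32807 promoter windows of that length, 9.37% hold GATAA on either strand. For Npc1l1, the 250 bases before its RefSeq start (chr11:6230246-6230495, minus strand) hold AGGTCA, the core read by many nuclear receptors, 1 time on the opposite strand, in capitals, and 14% of windows of that length hold it.
Abcg5-Abcg8 interval: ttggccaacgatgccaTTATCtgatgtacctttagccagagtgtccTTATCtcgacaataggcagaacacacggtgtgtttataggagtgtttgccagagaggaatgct
Npc1l1: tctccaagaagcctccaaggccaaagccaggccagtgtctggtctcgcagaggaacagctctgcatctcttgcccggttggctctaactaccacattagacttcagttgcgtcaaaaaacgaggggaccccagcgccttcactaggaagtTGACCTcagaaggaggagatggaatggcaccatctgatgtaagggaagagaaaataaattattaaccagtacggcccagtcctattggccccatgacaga
A pair of arrangements of AGGTCA were also searched on both strands, the direct repeat with 4 bases between that LXR can bind and the inverted repeat with 1 base between that the bile acid receptor FXR can bind. Neither is spelled in these windows, and of windows of the Npc1l1 length 0.0152% and 0.0061% hold them. The window before Lpcat3 was of another make-up, with 70% G and C and the GC box GGGCGG 5 times over both strands, and 32.7% of windows hold that box.

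With tCDCA against DMSO, 3 of the 8 genes fell: Npc1l1 most, by 3.24-fold, then Abcg5 by 1.84-fold and Lpcat3 by 1.67-fold. None rose. The other 5 did not pass an adjusted p of 0.05 (edgeR's quasi-likelihood test, Benjamini-Hochberg over 13125 genes). Over all genes, 5.68% were called in this comparison and 3.16% were called lower. The median log2 change was -0.79 over the 8 genes, 7 of which had a value below 0, and 0.00 over all genes tested.

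Npc1l1 read 66.9, 134 and 97.5 CPM in the DMSO libraries (replicates 2 to 4) and 25.3, 39.4, 30.6 and 24.2 CPM in the tCDCA libraries (replicates 1 to 4). Every tCDCA library lay below every DMSO library. The log2 change was -1.70 ± 0.25 (SE; 95% interval -2.21 to -1.18; adjusted p = 4.02e-05, edgeR). It was called in all 18 alternative analyses, at -1.92 to -1.42. Within the second run alone it was -1.66 (adjusted p = 4.72e-05). The removed DMSO replicate 1, from the first run, was at 43.6 CPM, against 25.3 CPM in the first-run tCDCA library, a log2 ratio of -0.79 between 2 single libraries. With that library added to the DMSO group the change was -1.48 (adjusted p = 0.00149).

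With the extracts the fitted level of Npc1l1 lay between those of DMSO and tCDCA. The gene read 38.2, 45.1, 59.3 and 75.4 CPM with WT CME(-), 47.9, 77.1 and 89.3 with WT CME(+), 48.1, 55.4 and 34.5 with Asbt-/- CME(-), and 57.3, 40.8, 39.5 and 38.7 with Asbt-/- CME(+). WT CME(-) and WT CME(+) overlapped the range of the DMSO libraries used, and both Asbt-/- groups lay below it. In the first run, the removed DMSO replicate 1 (43.6 CPM) lay below replicate 1 of both Asbt-/- groups (48.1 and 57.3 CPM). It also lay below replicate 1 of WT CME(+) (47.9 CPM) and above that of WT CME(-) (38.2 CPM). Against DMSO, which all these comparisons share, Npc1l1 fell with Asbt-/- CME(+), by 2.16-fold (log2 -1.11 ± 0.25, adjusted p = 0.014, edgeR), where 2.31% of all genes were called and 0.922% called lower. This call was lost without DMSO replicate 3 (-0.83, adjusted p = 0.175), with DMSO replicate 1 added (-0.88, adjusted p = 0.139) and without Asbt-/- CME(+) replicate 2, 3 or 4 (adjusted p = 0.0655, 0.061 and 0.0697). The changes with Asbt-/- CME(-) (-1.04 ± 0.27, adjusted p = 0.0614) and WT CME(-) (-0.84 ± 0.25, adjusted p = 0.169) did not pass, nor did WT CME(+) (-0.44 ± 0.26, adjusted p = 0.611). Of all genes, 0.952%, 0.297% and 0.175% were called in these 3 comparisons.

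Set directly against the extracts, tCDCA gave a lower Npc1l1 than WT CME(+), by 2.4-fold (log2 -1.26 ± 0.25, adjusted p = 0.00451, edgeR), where 1.55% of all genes were called and 1.06% called lower. The call was lost without WT CME(+) replicate 4 (-1.09, adjusted p = 0.0794). The differences from WT CME(-) (-0.86 ± 0.24, adjusted p = 0.0943), Asbt-/- CME(-) (-0.66 ± 0.25, adjusted p = 0.422) and Asbt-/- CME(+) (-0.59 ± 0.23, adjusted p = 0.247) did not pass, with 0.541%, 0.114% and 1.93% of all genes called. Ordered by the fitted level, the groups ran DMSO, WT CME(+), WT CME(-), Asbt-/- CME(-), Asbt-/- CME(+), tCDCA. No step between neighbours passed, the largest being the last, 0.59 ± 0.23 on the log2 scale.

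**Figure D1:**
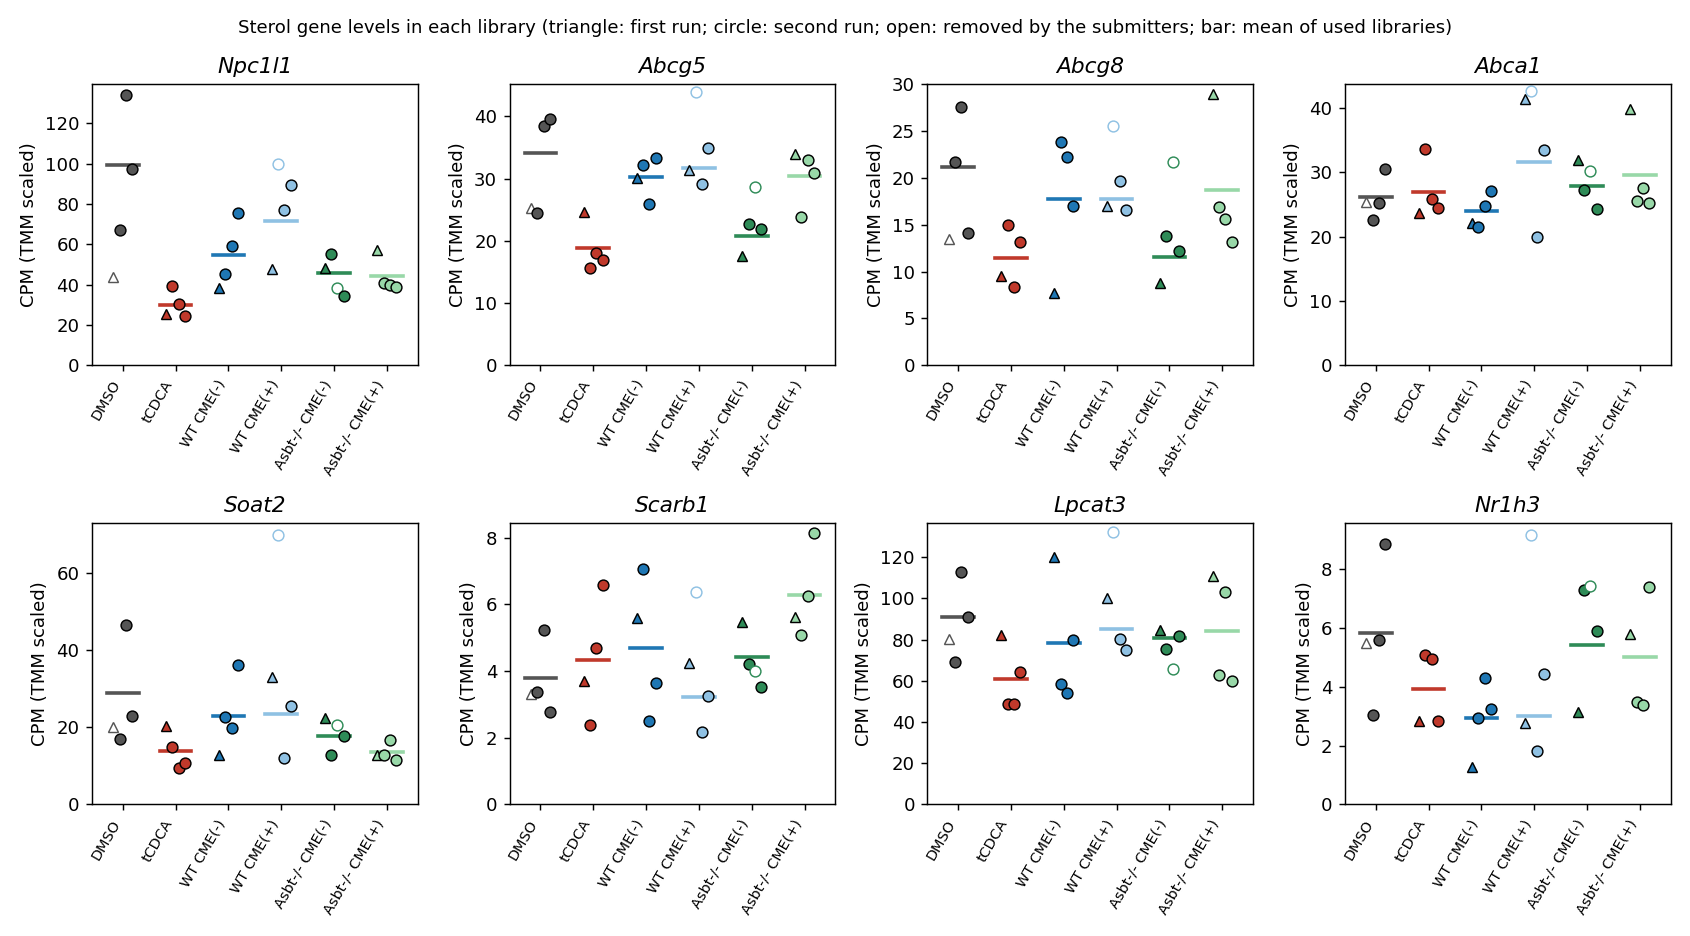
Level of each of the 8 genes in CPM (TMM scaled, linear axis from 0) in every library, by group; triangles are first-run and circles second-run libraries, open symbols are the 3 libraries removed by the submitters, and bars are means of the libraries used. The 4 tCDCA libraries sit at 24.2 to 39.4 CPM for Npc1l1, below the 3 DMSO libraries used at 66.9 to 134 CPM, and the groups mix for Abca1, Scarb1 and Nr1h3.

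Scarb1 encodes SR-BI, a receptor for high-density lipoprotein that also sits on the enterocyte surface. Its level was low, 2.77 to 5.25 CPM in DMSO and 2.38 to 6.6 CPM with tCDCA, and the ranges overlapped. The log2 change with tCDCA was 0.16 ± 0.49, with a 95% interval of -0.82 to 1.15, so a 2-fold rise lies inside the interval and was not detectable at this depth. Its highest group was Asbt-/- CME(+), at 5.09 to 8.15 CPM (log2 0.70 ± 0.48 against DMSO, adjusted p = 0.508, edgeR).

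Soat2, the acyltransferase that esterifies cholesterol in enterocytes, was uneven between replicates, with a biological coefficient of variation of 0.314 against 0.266 in common over all genes. It read 16.8, 46.5 and 23.0 CPM in DMSO and 20.2, 14.9, 9.4 and 10.7 CPM with tCDCA. The first-run tCDCA library was the one that overlapped DMSO. The log2 change was -1.12 ± 0.37 (adjusted p = 0.0712, edgeR) and did not pass, although within the second run alone it did (-1.30, adjusted p = 0.0259). DMSO replicate 3 carried much of the size: without it the change was -0.60 (adjusted p = 0.53). In the first run, tCDCA replicate 1 and the removed DMSO replicate 1 were at 20.2 and 20.1 CPM. With Asbt-/- CME(+), Soat2 read 11.5 to 16.6 CPM in its 4 libraries, all below the 3 DMSO libraries (log2 -1.15 ± 0.36, adjusted p = 0.0919, edgeR).

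Abcg5 read 24.5, 38.5 and 39.6 CPM in DMSO and 24.7, 15.6, 18.0 and 17.0 CPM with tCDCA. The 3 second-run tCDCA libraries lay below all DMSO libraries, and the first-run one lay just above the lowest of them. The log2 change was -0.88 ± 0.23 (95% interval -1.33 to -0.42; adjusted p = 0.0141, edgeR), and -1.01 within the second run (adjusted p = 0.00846). The call was lost without DMSO replicate 3 (-0.79, adjusted p = 0.0996) and without DMSO replicate 4 (-0.75, adjusted p = 0.0871). In the first run, tCDCA replicate 1 and the removed DMSO replicate 1 were at 24.7 and 25.2 CPM, a log2 ratio of -0.03.

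Abcg8, the partner subunit, read 21.7, 27.6 and 14.1 CPM in DMSO and 9.51, 14.9, 8.36 and 13.2 CPM with tCDCA, with DMSO replicate 4 inside the tCDCA range. The log2 change was -0.84 ± 0.33, close in size to that of Abcg5, and did not pass (adjusted p = 0.134, edgeR). In the GRCm38 annotation the 2 genes overlap, but not at their 3' ends, where these tags fall. The ratio of Abcg5 to Abcg8 counts ran from 1.05 to 3.89 over the libraries used, both ends in single libraries of tCDCA and WT CME(-).

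Both transporter genes were also low with Asbt-/- CME(-). Abcg5 read 17.6, 22.7 and 22.0 CPM there, all below DMSO, and Abcg8 8.8, 13.8 and 12.2 CPM, also below DMSO. Neither passed against DMSO: the log2 changes were -0.76 ± 0.25 for Abcg5 (adjusted p = 0.135, edgeR) and -0.82 ± 0.36 for Abcg8 (adjusted p = 0.318, edgeR). The library of this group that the submitters removed read 28.6 CPM for Abcg5 and 21.7 CPM for Abcg8, inside the DMSO ranges.

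With the depleted form of the same donors, Asbt-/- CME(+), Abcg5 was at 33.9, 23.9, 33.0 and 30.9 CPM and Abcg8 at 29.0, 16.9, 15.6 and 13.1 CPM, both overlapping DMSO. The direct comparison of Asbt-/- CME(-) with Asbt-/- CME(+) gave -0.57 ± 0.23 for Abcg5 (adjusted p = 0.527, edgeR) and -0.73 ± 0.33 for Abcg8 (adjusted p = 0.665, edgeR). It called 0.0229% of all genes (3), with 1 to 10 called as single libraries were left out and 0 to 75 by the other analyses. The count was 19 when fitted as pairs of one replicate number. That number stands for the donor in replicates 2 to 4, and the labels name no donor for replicate 1. In WT CME(-) against WT CME(+) 0% of genes were called by edgeR's quasi-likelihood test, with 831 at an unadjusted p under 0.05 and 0 to 22 called by the other analyses (22 when fitted as pairs of one replicate number, no sterol gene among them). No sterol gene was called there, nor in the comparisons of donors within a form or in the test of whether the 2 form differences differ by donor. Those 3 comparisons had 531, 556 and 491 genes at an unadjusted p under 0.05, and 0% were called, with at most 4, 2 and 0 called by the other analyses. If no gene differed, a share of about 0.05 of the 13125 genes tested would lie under that p in each comparison. The 95% interval for Abcg5 between the Asbt-/- forms, not adjusted for the number of genes, was -1.03 to -0.11.

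Abca1 had the smallest log2 change of the 8 genes with tCDCA. It read 22.6, 25.2 and 30.5 CPM in DMSO and 23.6, 33.6, 25.9 and 24.5 CPM with tCDCA, fully mixed. The log2 change with tCDCA was -0.02 ± 0.23, with a 95% interval of -0.49 to 0.45. Against DMSO the 4 extract groups gave values between -0.19 and 0.18. The 2 highest libraries among those used were both first-run, WT CME(+) replicate 1 at 41.3 CPM and Asbt-/- CME(+) replicate 1 at 39.9 CPM.

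Lpcat3 encodes the enzyme that places polyunsaturated chains into phospholipids and is an LXR target in the gut. It read 69.4, 113 and 90.9 CPM in DMSO and 82.2, 48.9, 48.6 and 64.1 CPM with tCDCA. The 3 second-run tCDCA libraries lay below all DMSO libraries, and the first-run one lay among them. The log2 change was -0.74 ± 0.20 (adjusted p = 0.0198, edgeR), and -0.75 within the second run (adjusted p = 0.0345). It did not pass without DMSO replicate 3 (-0.55, adjusted p = 0.209), without tCDCA replicate 3 (-0.67, adjusted p = 0.0526) or with DMSO replicate 1 added (-0.57, adjusted p = 0.0989). In the first run the tCDCA library and the removed DMSO library were at 82.2 and 80.3 CPM.

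The Lpcat3 count has a further limit. In the GRCm38 annotation its 3' end overlaps by 334 bases that of Emg1, on the opposite strand, and the strand setting of the counting is not given in the sources used here. Emg1, a ribosome assembly gene, had a log2 change of 0.12 ± 0.21 with tCDCA (adjusted p = 0.839, edgeR). No extract gave a call for Lpcat3 against DMSO. CME(-) gave -0.40 ± 0.20 from WT and -0.35 ± 0.21 from Asbt-/- donors, and CME(+) gave -0.28 ± 0.21 and -0.27 ± 0.20.

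Nr1h3 encodes LXR alpha itself. It read 3.06, 5.6 and 8.86 CPM in DMSO and 2.82, 5.09, 4.96 and 2.83 CPM with tCDCA, which overlapped. The log2 change was -0.47 ± 0.50 with a 95% interval of -1.48 to 0.55, wide enough to hold both no change and a 2-fold fall. WT CME(-) gave -0.93 ± 0.52 (adjusted p = 0.606, edgeR) with its lowest library, replicate 1, at 1.29 CPM from 6 counts.

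By the fitted level, DMSO was the highest group for Npc1l1, Abcg5, Abcg8, Soat2, Lpcat3 and Nr1h3, WT CME(+) for Abca1 and Asbt-/- CME(+) for Scarb1. The lowest group was tCDCA for Npc1l1, Abcg5, Abcg8 and Lpcat3, Asbt-/- CME(+) for Soat2, WT CME(-) for Abca1 and Nr1h3, and WT CME(+) for Scarb1. For none of the 8 genes did a step between neighbouring groups pass the threshold, and the smallest adjusted p of such a step was 0.247 (edgeR).

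**Figure D2:**
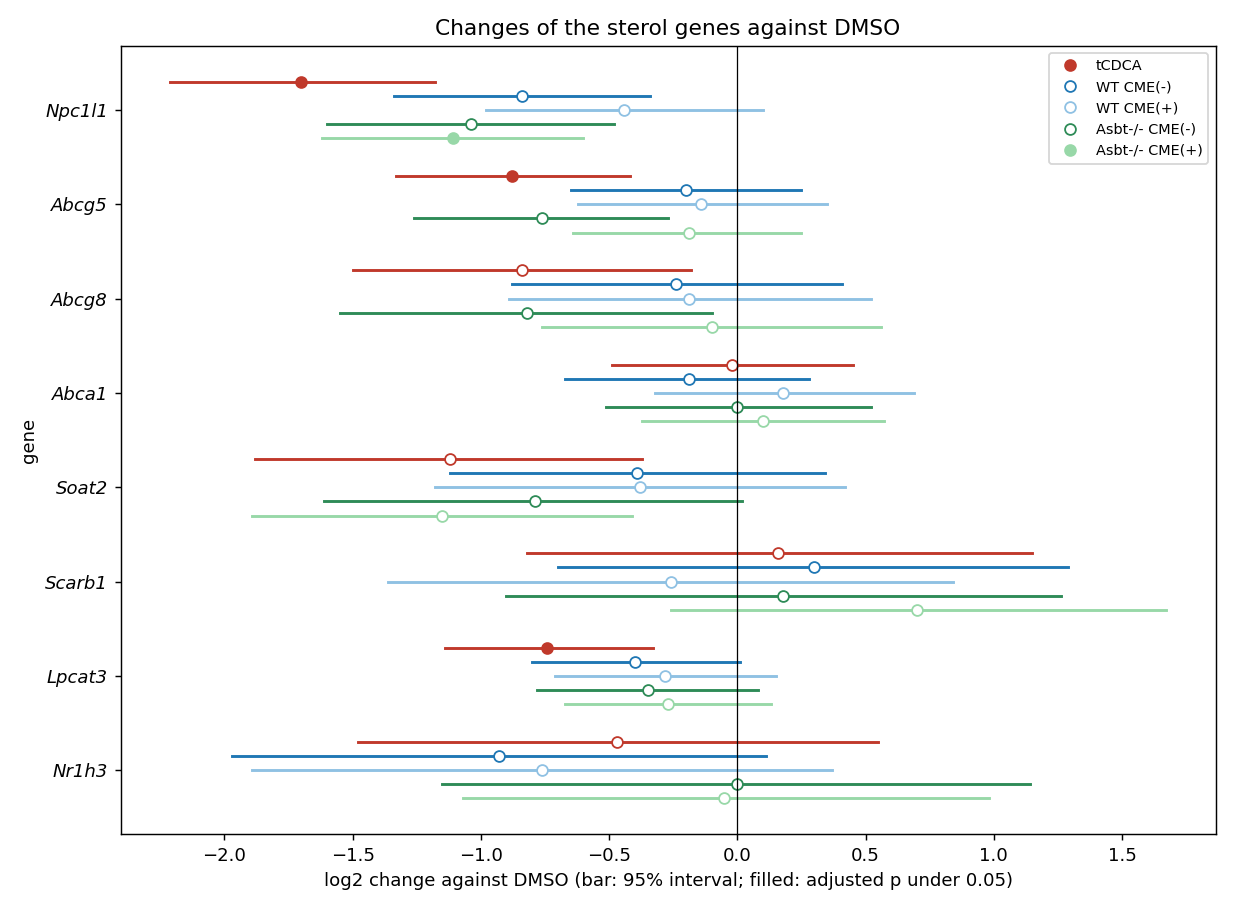
Log2 change of each gene against DMSO for tCDCA and the 4 extract groups, with 95% intervals; filled points have an adjusted p under 0.05. Filled points are Npc1l1, Abcg5 and Lpcat3 with tCDCA and Npc1l1 with Asbt-/- CME(+), and all 5 comparisons share the same 3 DMSO libraries.

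The neighbouring genes of sterol handling were mixed. Of 80 further genes in 8 lists of the pathway, 75 were tested. With tCDCA against DMSO 11 of these fell and 2 rose, with a median log2 change of -0.12 against 0.00 for all genes. Over all genes, 5.68% were called in this comparison and 3.16% called lower, the background for the list counts below as well. The 11 became 4 without DMSO replicate 3, 7 without tCDCA replicate 4, 6 with no scaling factors, 5 with no run term and 2 with the compared groups alone. Of the 12 genes for uptake and its regulators, Npc1l1 was the 1 that passed. Lima1, whose product recycles NPC1L1 to the surface, gave -0.38 ± 0.15 (adjusted p = 0.144, edgeR).

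Inside the cell, 4 of the 16 genes for sterol transport and esterification fell. They were Gramd1c, which carries cholesterol from the plasma membrane to the endoplasmic reticulum (-1.75 ± 0.34), the lysosomal lipase gene Lipa (-1.43 ± 0.38), Scp2, a peroxisomal sterol carrier (-1.03 ± 0.21), and the cholesterol carrier gene Stard4 (-0.59 ± 0.16). Of 11 tested genes for efflux and chylomicron export, 4 fell. Beside Abcg5 these were Apoa1 (-1.62 ± 0.41), which is also on the enterocyte list, Mttp, which loads lipid onto apolipoprotein B (-1.18 ± 0.27), and Sar1b, which packs chylomicrons for transport (-0.64 ± 0.16). Apob, the chylomicron's structural protein, gave -1.54 ± 0.48 (adjusted p = 0.0808, edgeR).

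The LXR targets split. Of 16 tested, 4 fell and 1 rose. The fatty acid synthase gene Fasn rose (0.77 ± 0.22, adjusted p = 0.0293, edgeR), and Mlxipl (-0.98 ± 0.24) and Smpdl3a (-0.77 ± 0.24) fell beside Abcg5 and Lpcat3. None of the 9 LXR receptors and partners passed, with Rxra, the shared partner, at -0.82 ± 0.27 (adjusted p = 0.0664, edgeR). Sult2b1, which sulfates sterols, was the 1 of 5 tested oxysterol and sterol-modifying enzymes to pass (-1.27 ± 0.30).

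The genes that make cholesterol gave no call. None of the 16 genes of the SREBP-2 program passed with tCDCA, and their median log2 change was 0.04. Sqle, which encodes squalene epoxidase, gave 0.02 ± 0.20. Of the 6 tested genes on the list for phospholipid remodelling, Mboat1 rose (1.10 ± 0.21), and Pla2g12b (-1.41 ± 0.32) fell with Lpcat3. Pla2g12b was on that list but does not encode an LPCAT enzyme.

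With the extracts against DMSO, the called pathway genes beside Npc1l1 were these. Scd2, a desaturase gene, rose with WT CME(+) (1.25 ± 0.22), Asbt-/- CME(-) (0.86 ± 0.22) and Asbt-/- CME(+) (1.40 ± 0.21). Elovl5, an elongase gene, rose with Asbt-/- CME(-) (1.04 ± 0.22) and Asbt-/- CME(+) (1.17 ± 0.21). With Asbt-/- CME(+), Fasn (0.80 ± 0.22), Mboat1 (0.74 ± 0.21) and the cholesterol synthesis gene Dhcr7 (0.84 ± 0.23) rose too and Sar1b fell (-0.58 ± 0.16). Sult2b1 fell with Asbt-/- CME(-) (-1.38 ± 0.33). Set against WT CME(+) and Asbt-/- CME(+), tCDCA gave lower Scd2 and Dhcr7. None of these comparisons against a shared group is independent of the others.

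**Figure D3:**
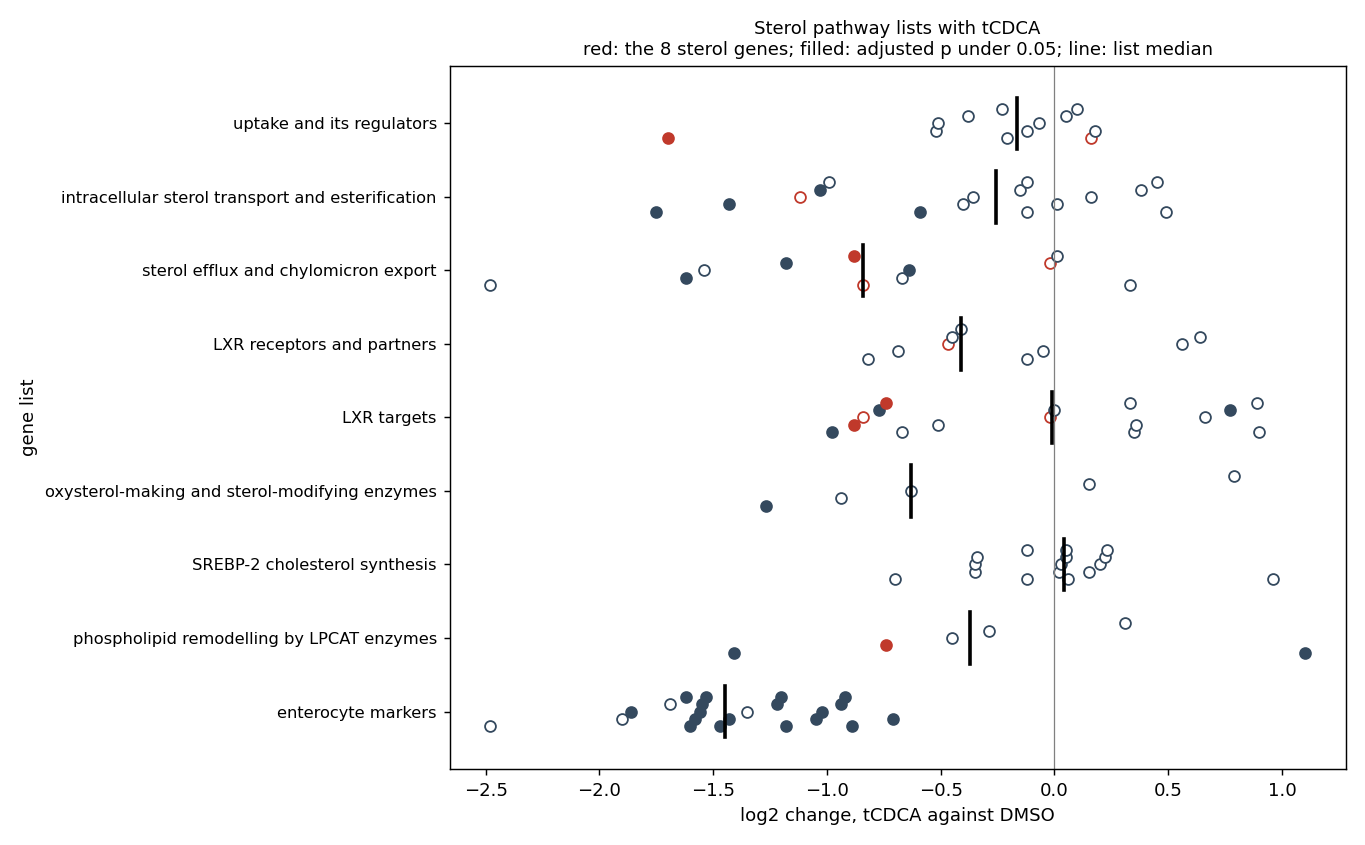
Log2 change with tCDCA against DMSO for every tested gene of the 8 pathway lists and of the enterocyte markers; red points are the 8 sterol genes, filled points have an adjusted p under 0.05, and black lines are list medians. The enterocyte markers centre on -1.45 and the SREBP-2 list on 0.04.

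Most markers of mature enterocytes fell with tCDCA, as Npc1l1, Abcg5 and Lpcat3 did. Of 22 markers, 18 fell with tCDCA against DMSO, where 3.16% of all genes were called lower. The median log2 change of the 22 markers was -1.45. Their summed level was 9601 to 15480 CPM in the DMSO libraries and 3299 to 5595 CPM in the tCDCA libraries. None of the 22 was at 0 in every used library of a group. The brush border genes Anpep (-1.55 ± 0.22), Sis (-1.58 ± 0.28) and Vil1 (-0.92 ± 0.17) were among them. The count was 9 with no run term, and 2 of the 22, Apoa1 and Apoa4, are also on the export list. Markers of other epithelial cells moved too: 3 of 8 Paneth cell markers (Defa30, Ang4, Mmp7) and 3 of 9 enteroendocrine markers (Tac1, Gcg, Cck) rose, with median log2 changes of 0.70 and 0.21, and 2 of 8 goblet cell markers (Fcgbp, Zg16) fell. Of 5 ileal enterocyte markers, Fgf15 and Slc51b (0.91 ± 0.20) rose, Slc10a2 (-1.77 ± 0.22) fell, and the median was 0.53. In crypt stem and myeloid cell lists 1 gene each rose (Sox9, Cd14), and none was called in the lists of other cells. In bulk tissue, fewer cells of a type and less RNA per cell cannot be told apart, and the part of the enterocyte markers in the sterol gene values was not tested.

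Other groups followed in part. The marker sum was 6137 to 10675 CPM with WT CME(+), 6255 to 9802 with WT CME(-), 5251 to 7111 with Asbt-/- CME(-) and 5214 to 7741 with Asbt-/- CME(+). Against DMSO, 0, 1, 2 and 4 of the 22 markers fell in those groups, in the same order. The shares of all genes called in these comparisons were 0.175%, 0.297%, 0.952% and 2.31%. Against WT CME(+), where Npc1l1 was lower with tCDCA, 12 of the 22 markers were lower with tCDCA as well. The count was 7 against Asbt-/- CME(+), 3 against WT CME(-) and 0 against Asbt-/- CME(-), where Npc1l1 was not called (adjusted p = 0.247, 0.0943 and 0.422, edgeR). The shares of all genes called, from WT CME(+) on in the same order, were 1.55%, 1.93%, 0.541% and 0.114%.

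Over the 21 libraries, with the run effect removed, Npc1l1 correlated with the mean of the 22 markers at r = 0.90. The value was 0.78 for Abcg5, 0.73 for Lpcat3, 0.59 for Soat2 and 0.47 for Abcg8. Nr1h3 (0.08), Abca1 (0.07) and Scarb1 (-0.28) showed little. With group means removed as well, Npc1l1 was at 0.65, Abcg5 at 0.54, Lpcat3 at 0.51, Soat2 at 0.27 and Abcg8 at 0.07. The points of these correlations share groups, depth and library scaling, so they are given as a description.

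**Figure D4:**
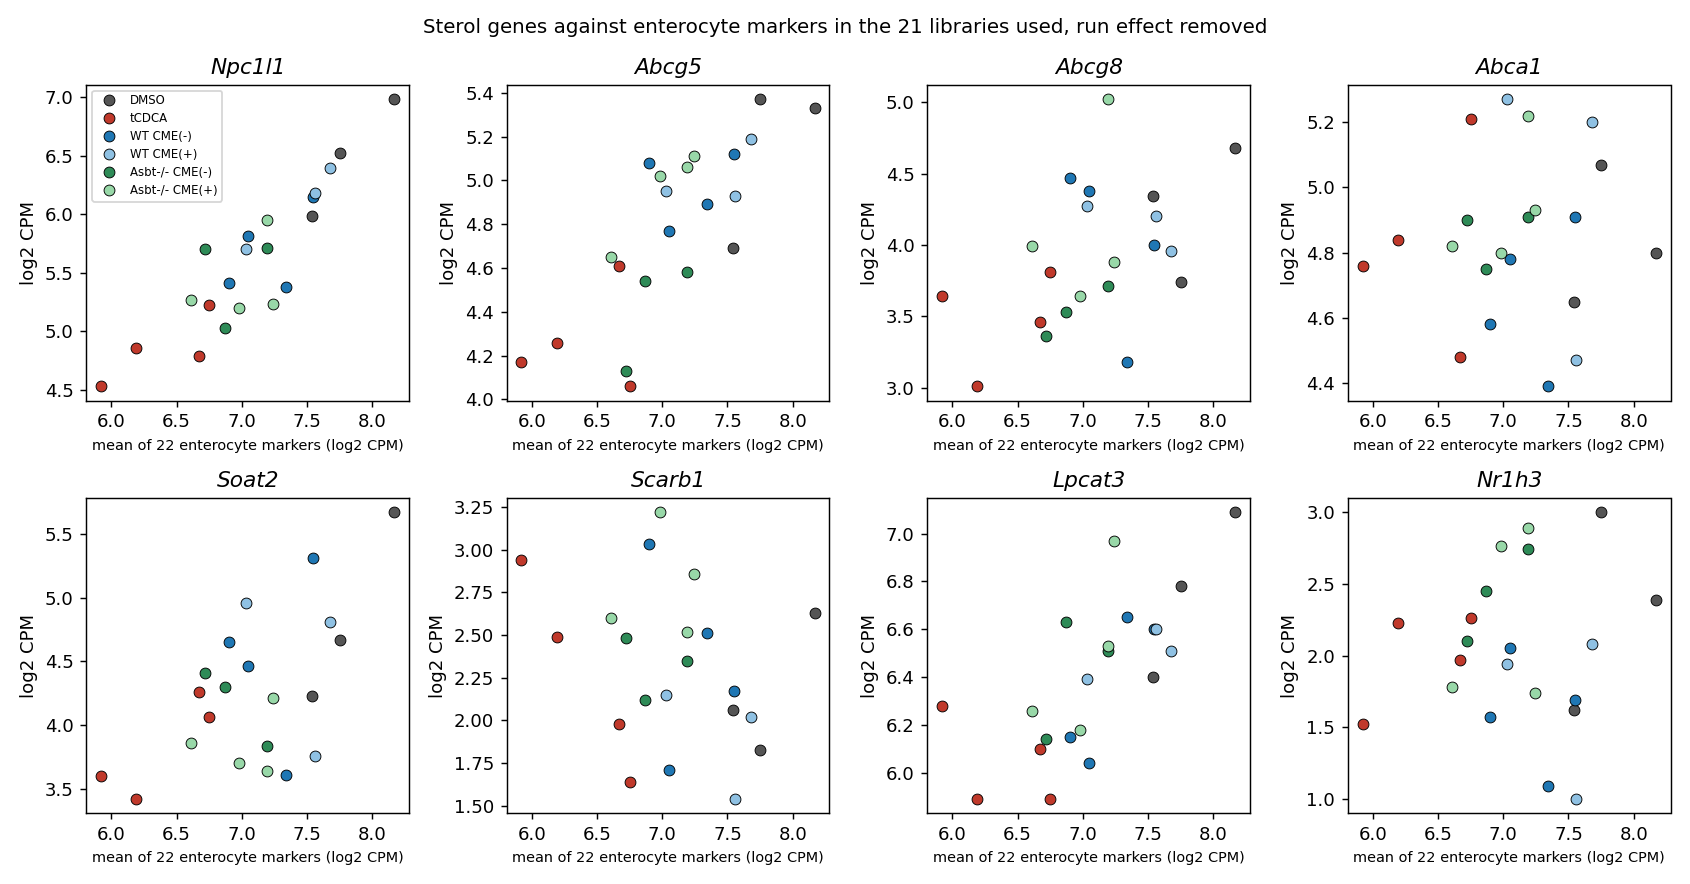
Each of the 8 genes (vertical axis, log2 CPM) against the mean of 22 enterocyte markers (horizontal axis, log2 CPM) in the 21 libraries used, after removal of the run effect, coloured by group. Npc1l1 rises with the markers (r = 0.90) with tCDCA libraries at the low end and DMSO libraries at the high end, and Abca1 shows no slope (r = 0.07).

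Outside the 8, the genes whose pattern over the 21 libraries was most like that of Npc1l1 were Slc27a4 (r = 0.92), a fatty acid transport gene, Prap1 (r = 0.91) and Ceacam20 (r = 0.89), out of 7873 candidates. For Abcg5 they were Amn (r = 0.86), which takes up vitamin B12 complexes, Clec2h (r = 0.86) and the neutral amino acid carrier gene Slc6a19 (r = 0.84). For Lpcat3 they were Slc26a6 (r = 0.86), an anion exchanger gene, Tkfc (r = 0.85) and Slc5a8 (r = 0.83), a monocarboxylate carrier gene. These 9 were chosen by their likeness over the same libraries, so their own changes with tCDCA follow in part from the choice and are no separate evidence.

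For the remaining 5 genes the closest patterns were looser. For Soat2 they were Agmo (r = 0.81), Resf1 (r = 0.80) and Cwf19l2 (r = 0.77). Abcg8 had Itih5, Ankzf1 and Numa1 (each r = 0.76), Abca1 had Safb2 (0.74), Ednra (0.70) and Exoc7 (0.69), Scarb1 had Ngrn (0.73), Mmadhc (0.69) and Lypla2 (0.69), and Nr1h3 had Cst3 (0.72), Npdc1 (0.70) and Fth1 (0.70).

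Among the 8 genes themselves, the closest pairs were Abcg5 with Lpcat3 (r = 0.68 over 21 libraries, 0.57 with group means removed) and Npc1l1 with Abcg5 (0.66 and 0.27). Abca1 and Nr1h3 were at 0.58 and 0.67. Abcg5 and Abcg8, transcribed from either side of the interval printed above, were at 0.51 and, with group means removed, at -0.02. The counts of Abcg8 (median 56 per library) and Nr1h3 (median 15) add counting noise to these values.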

How the data were processed

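Ileal RNA from 24 libraries in 6 groups was compared, of which 21 were used. The authors deposited 1 table of whole-number read counts per gene, not normalized. The submitters' processing notes list HISAT2, cutadapt, Picard and FastQC and the build GRCm39. What counted the reads, with which strand setting and annotation, is not given in the sources used here. Gene symbols came from GENCODE M21 (GRCm38), which named 51884 of 57126 identifiers holding 88.4% of counts.

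Counts were fitted with edgeR 4.0.16 in R 4.3.3 (filterByExpr, TMM, robust quasi-likelihood, terms for group and run) over all 21 libraries. Run was inferred from the first number in the table's column names and is not named in the labels. Each of 14 contrasts was tested on both sides, with Benjamini-Hochberg adjustment over 13125 genes and a threshold of 0.05. The common biological coefficient of variation was 0.266. CPM are TMM scaled, and log2 CPM used a prior count of 2. Used replicates of a group differed by at least 7.21 times the sampling variance (chi-square per degree of freedom). Each library counted once, although such a spread does not show that libraries are independent. The code was tested on simulated counts with the group sizes and gene spreads of these data and no run effect. For tCDCA against DMSO it recovered 29 of 100 genes with a true log2 change of 1. At a true log2 change of 2 it recovered 68 of 100. Of 103 calls, 6 were false. A gene that was not called can thus still have changed.

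The 8 genes and all lists were chosen with earlier results of these data known. The text names the 8 genes, up to 4 called genes of each pathway list with the smallest p in a comparison, and the 3 genes most correlated with each of the 8 (mean log2 CPM of at least 3). Other genes named (Lima1, Apob, Rxra, Sqle, Smpdl3a, Emg1 and single markers) were chosen after their values were seen. Alternatives were RLE scaling, no scaling, no filter, no run term, the second run alone, all 24 libraries, DMSO replicate 1 added, compared groups alone, a replicate block, DESeq2 1.42.0 and each library left out. Leaving out tCDCA replicates 1 and 3 together was added after seeing the data. Extract donors pair CME(-) and CME(+) of replicates 2 to 4 within a genotype, and elsewhere the replicate numbers pair nothing by the labels. Comparisons within a genotype were fitted without the block and, as an alternative, with it.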

Additional observations from a re-analysis of the deposited data

Results flagged for a closer look

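Among the 24 sets of 4 libraries formed by a gene and a group, 2 had a library far from the other 3 by Dixon's test. The test's usual rate of about 1 in 20 by chance assumes libraries that are alike. Each set joined both runs with no adjustment, so that rate does not apply. Both flags fell on replicate 1 of Asbt-/- CME(+), the group's only library of the first run as inferred from the table's column names. Npc1l1, the cholesterol importer gene, read 57.3 CPM there against 38.7 to 40.8 CPM in the second-run libraries of the group. Abca1, the basolateral cholesterol exporter gene, read 39.9 CPM there against 25.2 to 27.6 CPM. Without this library the change of Npc1l1 with Asbt-/- CME(+) against DMSO was -1.33 (adjusted p = 0.00126, edgeR). Within the first run the direction differed: the removed DMSO replicate 1 read 43.6 CPM for Npc1l1, below this library. First-run WT CME(+) (47.9 CPM) and Asbt-/- CME(-) (48.1 CPM) also lay above it, and WT CME(-) (38.2 CPM) and tCDCA (25.3 CPM) below. These are single libraries.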

How the results depend on the processing

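For tCDCA against DMSO, the count of called sterol genes went from 3 to 1 with no scaling factors, with no run term and with the compared groups alone, and was 1 to 4 as single libraries were left out, with 1 (Npc1l1) without DMSO replicate 3. Npc1l1 was called in all 18 alternatives, Abcg5 in 13 and Lpcat3 in 10. Soat2 was called in 5, among them no filter and DESeq2. For Asbt-/- CME(+) against DMSO the count went from 1 to 0 with no scaling factors, no run term, all 24 libraries or DMSO replicate 1 added, to 2 with no filter and with DESeq2, and was 0 to 2 as single libraries were left out. For tCDCA against WT CME(+) it went from 1 to 0 with no run term, to 2 with all 24 libraries and with DESeq2, and was 0 to 2 with single libraries left out (2 without tCDCA replicate 1). Counts of 0 became 1 for WT CME(-) against DMSO with no filter (0 to 1 with single libraries left out), for Asbt-/- CME(-) against DMSO with no filter and DESeq2 (0 to 1), for tCDCA against WT CME(-) with no filter and DESeq2, and for tCDCA against Asbt-/- CME(+) with DESeq2 (0 to 1). The cause was not tested. No called value changed sign in any alternative run. All genes called with tCDCA against DMSO were 746, 176 with no run term, 327 without DMSO replicate 3 and 993 with DESeq2. No scaling moved the median of all genes by 0.13 on the log2 scale for tCDCA and to 0.22 for Asbt-/- CME(+) against DMSO. Over 31 same-numbered pairs of libraries the correlation of deviations was -0.18 to 0.13, with 3 over 0.1. With the replicate block, 3 sterol genes were called for tCDCA against DMSO (650 genes in all), and the block changed no other call of a sterol gene. With the replicate block in the compared groups alone, CME(-) against CME(+) gave 22 genes for WT and 19 for Asbt-/- donors, against 0 and 3. There the block stands for the donor in replicates 2 to 4, and the labels name no donor for replicate 1. Scarb1 and Nr1h3, with a lowest count of 6 and 5, are limited by depth.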
